A study of Mus musculus with 9 samples.

Results

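The genes described here are the DEAD-box and DEAH-box RNA helicases of the mouse, taken as every gene whose array probe carries an accession that the RefSeq gene table names Ddx or Dhx followed by a number. There were 50 such genes, 34 Ddx and 16 Dhx, measured on 66 probes, among 26864 features tested (16089 of them with a gene symbol). All 50 were well above background on all 9 arrays, so no member was lost to a filter on dim probes, and 2 further genes of the table, Ddx46 and Ddx60, had no matched probe. The study treated J1 cells, an embryonic stem cell line of mouse strain 129S4/SvJae, and measured total RNA on one-colour Agilent arrays. The 3 groups of 3 arrays were cells given 3 µM CHIR99021, an inhibitor of the kinase GSK3, cells given 1 mM AICAR, an activator of the kinase AMPK, and cells given DMSO, the solvent. Each lasted 24 h, and all cells, controls included, grew on gelatin without feeder cells in serum replacement medium with LIF at 1000 U/mL, the cytokine that keeps mouse stem cells undifferentiated. Whether the numbered replicates came from separate cultures is not stated, and the p-values here rest on the spread between arrays, which may be technical.

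DEAD-box and DEAH-box proteins use ATP to unwind short RNA duplexes or to strip proteins from RNA, and are named after amino acid letters of their conserved motif II. DEAD-box proteins open duplexes locally, whereas DEAH-box proteins move along a strand and many are switched on by cofactors with a G-patch. Different members drive ribosome assembly in the nucleolus, the steps of splicing, mRNA export, translation, mRNA decay, mitochondrial RNA metabolism and the sensing of viral RNA, and a dividing stem cell uses most of these pathways at a high rate.

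Values are log2 levels, meaning the log2 of a spot's processed signal minus the 75th percentile of its array, for the brightest probe of each gene. Fold changes are differences of these levels with standard errors from limma, each group with n = 3 arrays, and the words rose and fell are kept for genes with a Benjamini-Hochberg adjusted p, over all 26864 features, under 0.05. Arrays of 1 group correlated at 0.9947 to 0.9962 over probes and arrays of different groups at 0.9714 to 0.982. Between 62.8% and 67.2% of the spots on each array were well above background. The arrays of each group shared a slide and a scan that held no other group, so slide and treatment cannot be told apart. All 8 embryonic stem cell markers, among them Pou5f1, Nanog and Sox2, were well above background on all 9 arrays. In these bulk samples fewer cells of a type and less RNA per cell cannot be told apart.

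AICAR was followed by lower levels of most helicase genes, and CHIR99021 by small changes in both directions. After AICAR 34 of the 50 members fell, 3 rose and 13 did not pass the test, where 29.6% of all features fell, 30.9% rose and 60.5% changed in either direction. The members' median log2 fold change was -0.33 and that of all features 0.03, and the members ranged from -1.21 (Ddx58) to 0.37 (Ddx43). Past the test, 11 of the 50 members differed by 1.5-fold or more and 1 by 2-fold or more. Of the 26864 features 7259 and 3304 did so. The arrays of AICAR and DMSO did not overlap for 41 of the 50, against 67.1% of all features. With a scaling on 8 spike-in probes the median of all features itself shifted to 0.16. With it 20 members fell, where 4517 of the 26864 features did. The gap between the members' median and that of all features was -0.36, which a shift of whole arrays cannot move, and -0.27 with quantile scaling and in the deposited series matrix.

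After CHIR99021 13 members rose, 8 fell and 29 did not pass the test, where 30.4% of all features rose, 20.5% fell and 51.0% changed in either direction. A share of 42% of the members changed, which lies below that background. None of the changed members reached 1.5-fold, where 5230 of the 26864 features changed by that much or more past the test. The members' range was -0.36 (Ddx39b) to 0.49 (Dhx58). The members' median was 0.005, a gap of -0.06 to the 0.07 of all features. It was too near 0 to have a stable sign, and the scalings that lowered it, other than normexp, lowered the median of all features with it. The arrays of CHIR99021 and DMSO did not overlap for 29 members, against 63.3% of all features. With spike-in scaling 4 members rose and 5 fell, where 4536 of the 26864 features rose and 4799 fell. With normexp 11 members rose and 11 fell. Without DMSO array 1, DMSO array 2, CHIR99021 array 1 or CHIR99021 array 3 the number of members that fell was 5.

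Set against each other, the treatments differed in most members. In CHIR99021 against AICAR 33 members were higher with CHIR99021, 4 were lower and 13 did not pass the test, where 36.2% of all features were higher, 24.6% lower and 60.8% changed. The members' median difference was 0.39 and that of all features 0.10, and the arrays did not overlap for 38 members against 65.5% of features. Ddx58 had the largest difference, 1.63, and the 4 lower members were Dhx34, Ddx43, Dhx32 and Ddx19b. With spike-in scaling 17 members were higher, where 4185 of the 26864 features were. Without AICAR array 1 or AICAR array 3 only 2 members were lower. With quantile scaling and in the series matrix 27 were higher and 6 lower.

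**Figure D1:**
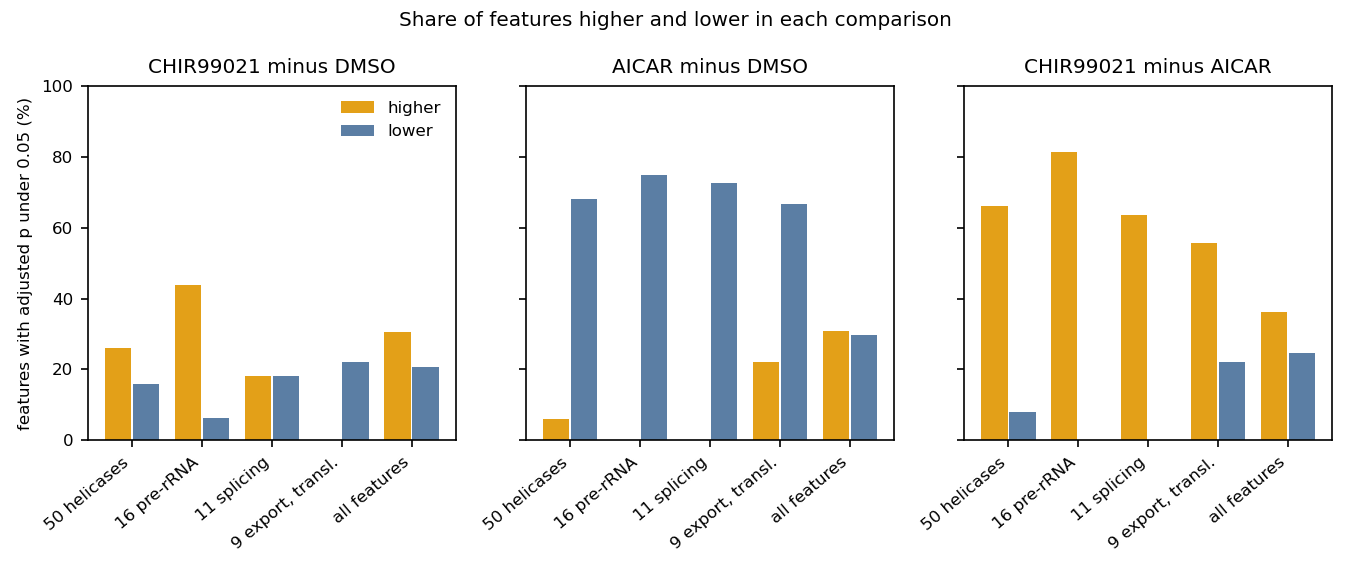
Share of features (%) with an adjusted p under 0.05, higher or lower, in each of the 3 comparisons, for the 50 helicases, their 3 largest role groups and all 26864 features tested. After AICAR the bars for lower reach 68% for the helicases and 29.6% for all features, and after CHIR99021 the bars for the helicases are 26% higher and 16% lower.

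The 16 helicases that process pre-ribosomal RNA or assemble ribosomal subunits were the largest group. After AICAR 12 of them fell, none rose and 4 did not pass the test, with a median of -0.41. That is 75% lower, where 29.6% of all features fell. After CHIR99021 7 rose, 1 fell and 8 did not pass, with a median of 0.18 that stayed above 0 in all scalings tried. The shares were 43.8% higher and 6.25% lower, where 30.4% of all features rose and 20.5% fell. With spike-in scaling 8 fell after AICAR and 2 rose after CHIR99021. The 2 comparisons share the DMSO arrays. The 4 that did not pass after AICAR were Ddx10, Ddx27, Dhx37 and Ddx50.

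Ddx51, which acts in the maturation of the large subunit's RNA, had the largest fall of the group. Its levels were 2.72, 2.63 and 2.65 with CHIR99021, 1.80, 1.70 and 1.79 with AICAR, and 2.67, 2.55 and 2.79 with DMSO. Every AICAR array was below every other array, while the CHIR99021 arrays lay within the DMSO range. It fell by 0.90 ± 0.07 after AICAR (limma adjusted p = 1.52e-05), and the change after CHIR99021 was 0.00 ± 0.07 (adjusted p = 0.997).

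Ddx21, a nucleolar helicase that binds ribosomal DNA and snoRNAs, showed the same order. Its levels were 3.55, 3.50 and 3.65 with CHIR99021, 2.71, 2.69 and 2.66 with AICAR, and 3.47, 3.37 and 3.46 with DMSO. All 3 AICAR values were below the DMSO values, a fall of 0.75 ± 0.05 (limma adjusted p = 1.15e-05), and the CHIR99021 values were slightly above DMSO without passing the test (0.13 ± 0.05, adjusted p = 0.0678). With the mean of its probes Ddx21 did rise after CHIR99021, by 0.18. Dhx33, which is known to act in the transcription of ribosomal DNA, had levels of 2.33, 2.29 and 2.33 with CHIR99021, 1.23, 1.32 and 1.45 with AICAR, and 2.13, 2.06 and 1.96 with DMSO. The 3 groups did not overlap and lay in the order CHIR99021, DMSO, AICAR. Dhx33 fell by 0.72 ± 0.07 after AICAR (limma adjusted p = 5.52e-05) and rose by 0.26 ± 0.07 after CHIR99021 (adjusted p = 0.0147), a rise that did not pass with normexp, with spike-in scaling or without DMSO array 3.

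Other members of the group were among those with the largest rises after CHIR99021. Ddx27, whose product works with the PeBoW complex in human cells, had levels of 4.01, 4.23 and 4.14 with CHIR99021, 3.60, 3.56 and 3.62 with AICAR, and 3.73, 3.70 and 3.75 with DMSO. It rose by 0.40 ± 0.06 after CHIR99021 (limma adjusted p = 0.00096), and although every AICAR array was below every DMSO array the difference of -0.13 ± 0.06 did not pass (adjusted p = 0.0917). Ddx31, a nucleolar helicase, had levels of 2.80, 2.80 and 2.74 with CHIR99021, 2.29, 2.23 and 2.13 with AICAR, and 2.36, 2.48 and 2.40 with DMSO. It rose by 0.37 ± 0.06 after CHIR99021 (limma adjusted p = 0.0011) and fell by 0.20 ± 0.06 after AICAR (adjusted p = 0.017), and this fall did not pass with quantile or spike-in scaling, in the series matrix or without DMSO array 2. Ddx10, needed for small subunit assembly in yeast through its ortholog, had levels of 2.12, 2.04 and 1.98 with CHIR99021, 1.65, 1.47 and 1.67 with AICAR, and 1.74, 1.81 and 1.75 with DMSO. It rose by 0.28 ± 0.07 after CHIR99021 (limma adjusted p = 0.00951), and its AICAR values, all lower than DMSO, gave -0.17 ± 0.07 (adjusted p = 0.0622).

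Ddx55, an ortholog of a yeast large subunit assembly factor, had levels of -0.45, -0.34 and -0.52 with CHIR99021, -1.09, -1.17 and -1.03 with AICAR, and -0.75, -0.66 and -0.71 with DMSO. No array of 1 group fell within the range of another. Ddx55 rose by 0.27 ± 0.06 after CHIR99021 (limma adjusted p = 0.00812) and fell by 0.39 ± 0.06 after AICAR (adjusted p = 0.000952). Ddx18, a nucleolar helicase conserved to yeast, had levels of 4.66, 4.76 and 4.73 with CHIR99021, 4.10, 4.0 and 4.0 with AICAR, and 4.45, 4.44 and 4.46 with DMSO. Its DMSO arrays were closely spaced and lay between the treatments, with a rise of 0.27 ± 0.05 after CHIR99021 (limma adjusted p = 0.00249) and a fall of 0.42 ± 0.05 after AICAR (adjusted p = 0.000155). Ddx52, whose yeast ortholog acts in small subunit assembly, had levels of 3.04, 3.10 and 3.08 with CHIR99021, 2.31, 2.31 and 2.22 with AICAR, and 2.89, 2.80 and 2.83 with DMSO. It lay in the same order without overlap, rising by 0.23 ± 0.05 after CHIR99021 (limma adjusted p = 0.00487) and falling by 0.56 ± 0.05 after AICAR (adjusted p = 3.04e-05). The rises of Ddx10, Ddx18, Ddx52, Ddx55 and Dhx33 after CHIR99021 did not pass with spike-in scaling, nor did the fall of Ddx55 after AICAR.

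Ddx54, a nucleolar helicase also known as a nuclear receptor corepressor, was the 1 member of the group that fell after CHIR99021. Its levels were 5.09, 5.20 and 5.18 with CHIR99021, 5.24, 5.07 and 5.07 with AICAR, and 5.38, 5.32 and 5.35 with DMSO. Both treatments lay below DMSO and overlapped each other, with falls of 0.20 ± 0.06 after CHIR99021 (limma adjusted p = 0.0289) and 0.23 ± 0.06 after AICAR (adjusted p = 0.0127). The CHIR99021 call was lost with spike-in scaling, with the replicate number as a block and without any 1 of DMSO arrays 1, 2 and 3 or CHIR99021 arrays 1 and 3, and the AICAR call with quantile and spike-in scaling and in the series matrix. The other genes of the group that fell after AICAR were Ddx56 (-0.61 ± 0.08), Ddx47 (-0.57 ± 0.08), Ddx49 (-0.53 ± 0.06) and Ddx24 (-0.39 ± 0.05), and none of these passed the test after CHIR99021. The call of Ddx24 was lost with spike-in scaling. Ddx50, a close paralog of Ddx21, had a log2 fold change of 0.31 ± 0.19 after AICAR that did not pass (limma adjusted p = 0.198). Every AICAR array of Ddx50 was above every DMSO array. It rose past the test with normexp, without CHIR99021 array 2 and in the 2-group fit. Probes of close pairs, Ddx21 with Ddx50, Ddx39a with Ddx39b, Ddx19a with Ddx19b and Ddx3x with Ddx3y, may bind transcripts of both copies. For these pairs the copy is uncertain.

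**Figure D2:**
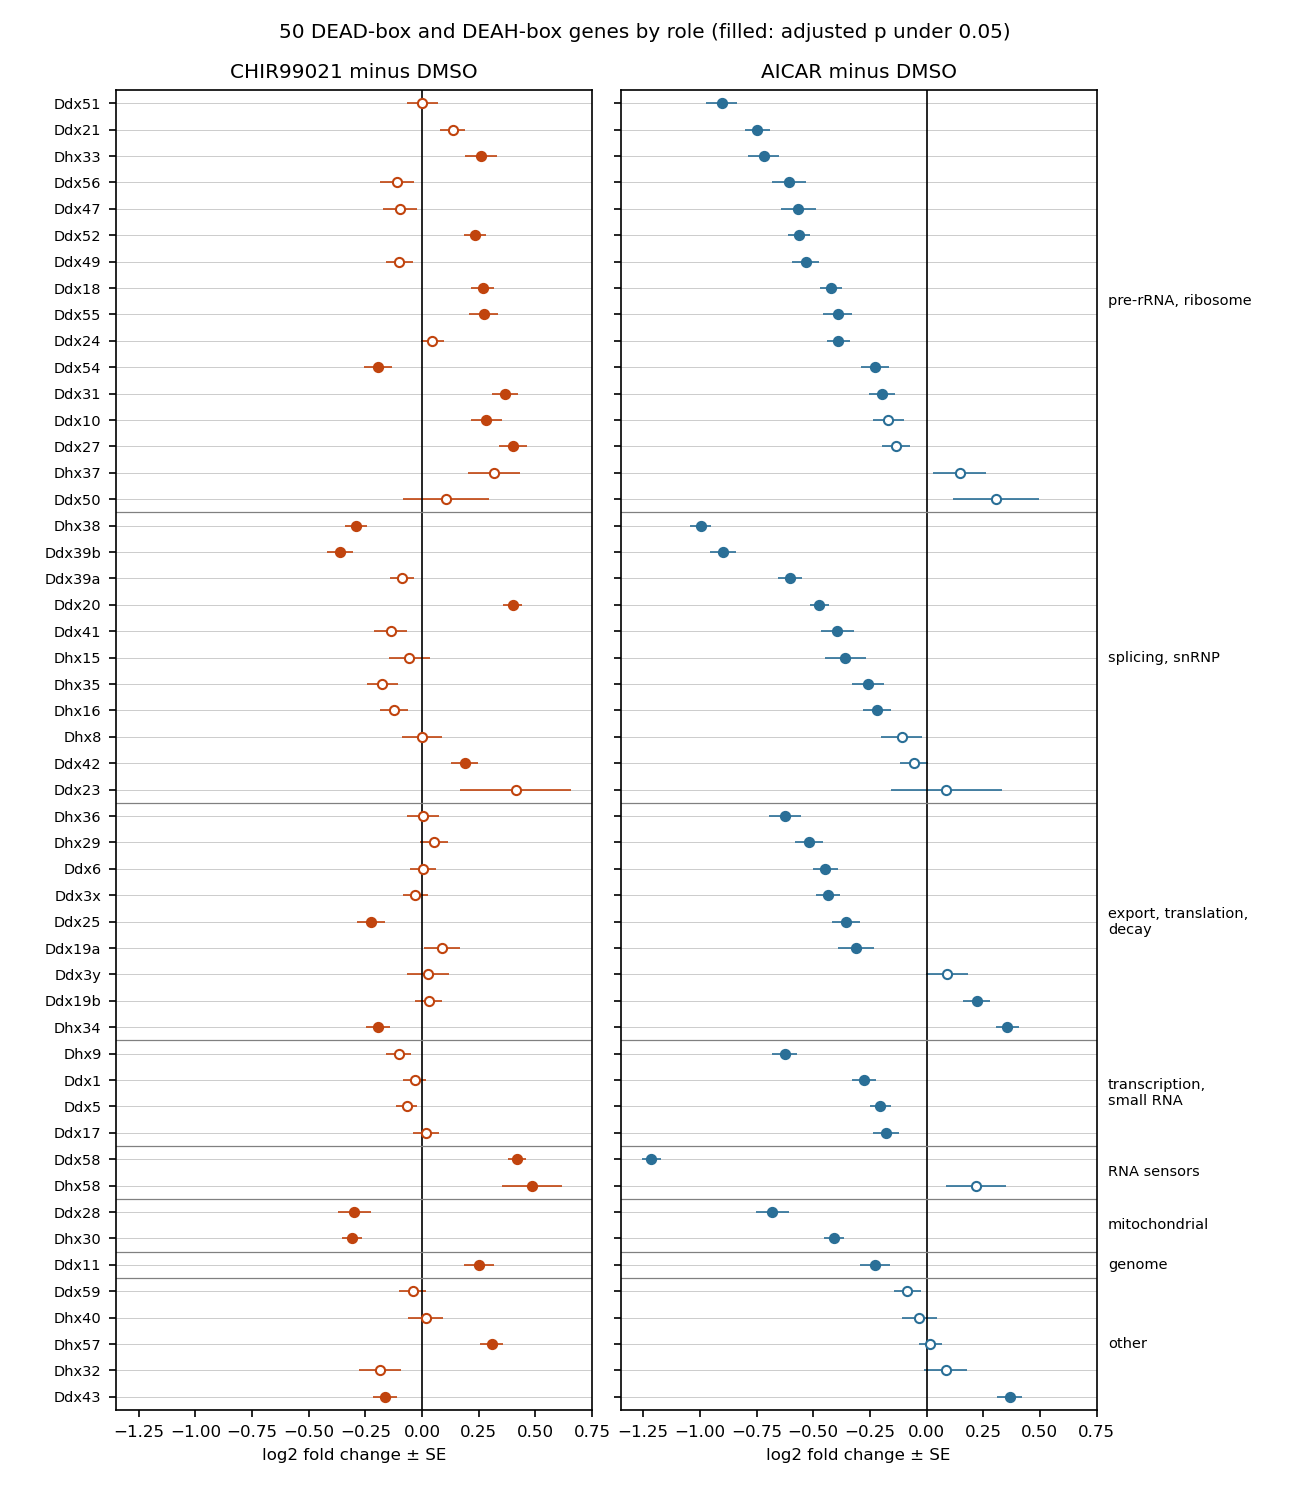
log2 fold change (± SE, 3 arrays per group) of all 50 members, by role, for CHIR99021 minus DMSO (left) and AICAR minus DMSO (right), with filled points for an adjusted p under 0.05. On the right 34 filled points lie left of 0 and 3 right of it, down to -1.21 for Ddx58, and on the left no filled point passes -0.36 or 0.49.

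Of the 11 helicases of the spliceosome and of snRNP assembly, 8 fell after AICAR, none rose and 3 did not pass the test, with a median of -0.36. That is 72.7% lower, where 29.6% of all features fell. After CHIR99021 2 rose, 2 fell and 7 did not pass, with a median of -0.09. The 18.2% that rose and the 18.2% that fell lie below the 30.4% and 20.5% of all features. The number that fell after AICAR was 5 with quantile scaling and in the series matrix, and 4 with spike-in scaling. After CHIR99021 1 rose with those 3 settings, with the replicate number as a block and without any 1 of DMSO arrays 1, 2 and 3 or CHIR99021 arrays 1 and 2, and 4 fell without AICAR array 1. Dhx38, which remodels the spliceosome before its second catalytic step, had levels of 0.59, 0.49 and 0.56 with CHIR99021, -0.20, -0.14 and -0.15 with AICAR, and 0.89, 0.80 and 0.82 with DMSO. Each treatment lay below DMSO without overlap and AICAR was lowest, with falls of 0.29 ± 0.05 after CHIR99021 (limma adjusted p = 0.00141) and 1.00 ± 0.05 after AICAR (adjusted p = 1.44e-06). Ddx39b, also called UAP56, loads the spliceosome's U2 particle and hands mRNA to the export machinery. Its levels were 6.21, 6.24 and 6.18 with CHIR99021, 5.76, 5.62 and 5.63 with AICAR, and 6.57, 6.50 and 6.64 with DMSO. The order was the same as for Dhx38, with falls of 0.36 ± 0.06 after CHIR99021 (limma adjusted p = 0.00125) and 0.90 ± 0.06 after AICAR (adjusted p = 6.68e-06).

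Ddx20, known as Gemin3, is the helicase of the SMN complex that assembles spliceosomal snRNPs, and it changed in opposite directions. Its levels were 4.11, 4.14 and 4.10 with CHIR99021, 3.24, 3.23 and 3.26 with AICAR, and 3.74, 3.68 and 3.73 with DMSO. The 3 groups were far apart relative to their spread on this probe, with a rise of 0.40 ± 0.04 after CHIR99021 (limma adjusted p = 0.000116) and a fall of 0.47 ± 0.04 after AICAR (adjusted p = 2.89e-05). This probe averages 10 spots per array where the other member probes have 1, so its spread is not directly comparable with theirs. Dhx15, which takes spent spliceosomes apart, had levels of 3.06, 3.03 and 3.18 with CHIR99021, 2.62, 2.77 and 2.97 with AICAR, and 3.17, 3.07 and 3.19 with DMSO. Its AICAR arrays were the most scattered of the 3 groups but all were below DMSO, a fall of 0.36 ± 0.09 (limma adjusted p = 0.00957) that did not pass with quantile or spike-in scaling or in the series matrix. Among the others Ddx39a fell by 0.60 ± 0.05, Ddx41 by 0.39 ± 0.07, Dhx35 by 0.26 ± 0.07 and Dhx16 by 0.22 ± 0.06 after AICAR. Of these Ddx41 was lost with spike-in scaling, Dhx35 and Dhx16 with spike-in and quantile scaling and in the series matrix, and Dhx16 also without DMSO array 1. Ddx42, a partner of the U2 particle, rose by 0.19 ± 0.06 after CHIR99021 (limma adjusted p = 0.032), a call lost with quantile scaling, with spike-in scaling, in the series matrix, with the replicate block and without any 1 of DMSO arrays 1, 2 and 3 or CHIR99021 arrays 1 and 2. Ddx23, which activates the spliceosome, and Dhx8, which releases the spliced mRNA, did not pass the test in any comparison, and Ddx23 had the largest standard error of the members, 0.24.

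Of the 9 helicases of mRNA export, translation and decay, 6 fell after AICAR, 2 rose and 1 did not pass the test, with a median of -0.35. That is 66.7% lower and 22.2% higher, where 29.6% of all features fell and 30.9% rose. After CHIR99021 2 fell, none rose and 7 did not pass, with a median of 0.00, and 1 fell without any 1 of DMSO arrays 1 and 2 or CHIR99021 arrays 1, 2 and 3. The 22.2% that fell is near the 20.5% of all features, of which 30.4% rose. Dhx36, which unwinds G-quadruplexes in RNA and DNA, had levels of 2.48, 2.60 and 2.57 with CHIR99021, 1.87, 1.84 and 2.06 with AICAR, and 2.60, 2.48 and 2.56 with DMSO. CHIR99021 and DMSO covered the same range and AICAR lay below both, a fall of 0.62 ± 0.07 (limma adjusted p = 0.000137). Ddx6, a repressor of translation and activator of decapping, had levels of 2.77, 2.66 and 2.69 with CHIR99021, 2.22, 2.34 and 2.21 with AICAR, and 2.65, 2.73 and 2.73 with DMSO. Again only the AICAR arrays stood apart, with a fall of 0.45 ± 0.06 (limma adjusted p = 0.00023), and the change after CHIR99021 was 0.00 ± 0.06. Ddx3x, which helps ribosomes start on structured mRNAs, had levels of 5.26, 5.18 and 5.21 with CHIR99021, 4.77, 4.88 and 4.78 with AICAR, and 5.18, 5.30 and 5.26 with DMSO. It fell by 0.44 ± 0.05 after AICAR (limma adjusted p = 0.000232), and its Y-linked copy Ddx3y did not pass the test in any comparison.

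Dhx34, which takes part in nonsense-mediated decay, moved the other way from most members. Its levels were 1.51, 1.59 and 1.52 with CHIR99021, 2.16, 2.05 and 2.06 with AICAR, and 1.73, 1.79 and 1.68 with DMSO. AICAR was highest, DMSO in between and CHIR99021 lowest, with a fall of 0.19 ± 0.05 after CHIR99021 (limma adjusted p = 0.0162) and a rise of 0.36 ± 0.05 after AICAR (adjusted p = 0.000579). The CHIR99021 call was lost with spike-in scaling and without CHIR99021 array 1 or DMSO array 2. Ddx19b, an mRNA export helicase of the nuclear pore, had levels of 1.60, 1.57 and 1.59 with CHIR99021, 1.82, 1.71 and 1.80 with AICAR, and 1.66, 1.48 and 1.53 with DMSO. It rose by 0.22 ± 0.06 after AICAR (limma adjusted p = 0.0119), which did not pass with normexp, while its neighbour in sequence Ddx19a fell by 0.31 ± 0.08 (adjusted p = 0.00993) on all scales but the spike-in one. Ddx25, known as a testis helicase of mRNA export and translation, had levels of 0.73, 0.58 and 0.57 with CHIR99021, 0.44, 0.58 and 0.48 with AICAR, and 0.88, 0.87 and 0.82 with DMSO. Both treatments were below DMSO and overlapped each other, with falls of 0.23 ± 0.06 after CHIR99021 (limma adjusted p = 0.0158) and 0.35 ± 0.06 after AICAR (adjusted p = 0.00135). The first was lost without CHIR99021 array 2, CHIR99021 array 3 or DMSO array 1, and the second with spike-in scaling. Dhx29, which helps the small ribosomal subunit scan structured leaders, fell by 0.52 ± 0.06 after AICAR.

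The 4 helicases of transcription and small RNA processing all fell after AICAR, with a median of -0.24, and none passed the test after CHIR99021. Of all features 29.6% fell after AICAR and 51.0% changed after CHIR99021. With quantile scaling, with spike-in scaling and in the series matrix 1 of the 4 fell. Dhx9, a nuclear helicase of transcription and double-stranded RNA, had levels of -0.98, -1.09 and -0.96 with CHIR99021, -1.53, -1.49 and -1.58 with AICAR, and -0.97, -0.86 and -0.89 with DMSO. The AICAR arrays lay well below the rest and CHIR99021 overlapped DMSO, with a fall of 0.63 ± 0.06 after AICAR (limma adjusted p = 3.63e-05). Ddx5, a coactivator that also assists microRNA processing, had levels of 4.44, 4.43 and 4.50 with CHIR99021, 4.28, 4.38 and 4.30 with AICAR, and 4.52, 4.54 and 4.51 with DMSO. Ddx5 fell by 0.20 ± 0.05 after AICAR (limma adjusted p = 0.00511), a call that held with normexp. It was not kept with quantile scaling (0.0012), in the series matrix (0.0017) or with spike-in scaling (-0.07). Its other probes, each tested on its own, gave -0.51 (limma adjusted p = 9.4e-05) and -0.45 (adjusted p = 0.0139) after AICAR. Ddx1, part of the tRNA ligase complex, fell by 0.28 ± 0.05 and Ddx17, the paralog of Ddx5, by 0.18 ± 0.06, a call that was also lost with the replicate block and without DMSO array 2, DMSO array 3 or AICAR array 3. With the mean of its probes Ddx17 was reversed, with a rise of 0.29 after AICAR (limma adjusted p = 0.00258) and a difference of -0.21 in CHIR99021 against AICAR (adjusted p = 0.0136), against 0.20 on the brightest probe.

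The sensors of viral RNA gave the largest change of any member. Ddx58 encodes RIG-I, which detects double-stranded RNA ends and triggers interferon through the adaptor Mavs. Its levels were 2.96, 3.00 and 3.02 with CHIR99021, 1.37, 1.36 and 1.35 with AICAR, and 2.56, 2.55 and 2.61 with DMSO. The 3 groups were widely separated, with a rise of 0.42 ± 0.04 after CHIR99021 (limma adjusted p = 9.88e-05) and a fall of 1.21 ± 0.04 after AICAR (adjusted p = 3.63e-07), a 2.32-fold difference. On the dimmer Ddx58 probe the change after AICAR was -0.07 (limma adjusted p = 0.59), so the fall rests on the brighter probe. Dhx58 encodes LGP2, a regulator of RIG-I signalling without signalling domains of its own. Its levels were -2.33, -1.96 and -2.10 with CHIR99021, -2.23, -2.67 and -2.29 with AICAR, and -2.62, -2.58 and -2.64 with DMSO. CHIR99021 lay above DMSO on all arrays, a rise of 0.49 ± 0.13 (limma adjusted p = 0.0164), and AICAR straddled DMSO, a difference of 0.22 ± 0.13 (adjusted p = 0.188) that passed without AICAR array 2, at 0.36 (adjusted p = 0.0239). The treatments did not differ past the test, at 0.27 ± 0.13 (adjusted p = 0.115). The rise of Dhx58 was lost with spike-in scaling and without CHIR99021 array 2.

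Both helicases of the mitochondrion fell under either treatment in all scalings tried. Of all features 20.5% fell after CHIR99021 and 29.6% after AICAR. Ddx28, which acts in the assembly of the mitochondrial ribosome, had levels of 0.54, 0.70 and 0.58 with CHIR99021, 0.31, 0.12 and 0.25 with AICAR, and 0.91, 0.84 and 0.97 with DMSO. Its groups did not overlap, and it fell by 0.30 ± 0.07 after CHIR99021 (limma adjusted p = 0.00899) and by 0.68 ± 0.07 after AICAR (adjusted p = 8.59e-05). Dhx30, found in mitochondrial RNA granules, had levels of 5.60, 5.63 and 5.60 with CHIR99021, 5.56, 5.50 and 5.47 with AICAR, and 5.90, 5.96 and 5.90 with DMSO. It fell by 0.31 ± 0.04 after CHIR99021 (limma adjusted p = 0.000738) and by 0.41 ± 0.04 after AICAR (adjusted p = 0.000111), and the difference between the treatments did not pass (0.10 ± 0.04, adjusted p = 0.088). The sign of that difference turned to -0.15 with quantile scaling (limma adjusted p = 0.015) and -0.16 in the series matrix (adjusted p = 0.0117).

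The remaining 6 members have other or less settled roles. Ddx11, a DNA helicase of sister chromatid cohesion, rose by 0.25 ± 0.07 after CHIR99021 and fell by 0.23 ± 0.07 after AICAR (limma adjusted p = 0.0136 and 0.0169), and neither call held with spike-in scaling. The first was also lost with normexp and without DMSO array 2, and the second without DMSO array 3. Ddx43, known from germ cells and tumours, had levels of 1.91, 1.93 and 1.85 with CHIR99021, 2.36, 2.48 and 2.43 with AICAR, and 2.13, 2.01 and 2.03 with DMSO. AICAR was highest and CHIR99021 lowest, with a fall of 0.16 ± 0.05 after CHIR99021 (limma adjusted p = 0.0368) that was lost when any 1 CHIR99021 or DMSO array was left out, with spike-in scaling and with the replicate number as a block (adjusted p = 0.0759), and a rise of 0.37 ± 0.05 after AICAR (adjusted p = 0.000608). Dhx57 had levels of 1.38, 1.43 and 1.40 with CHIR99021, 1.17, 1.06 and 1.10 with AICAR, and 1.08, 1.05 and 1.16 with DMSO. Here AICAR and DMSO overlapped and CHIR99021 was higher, a rise of 0.31 ± 0.05 (limma adjusted p = 0.00148) that did not pass with spike-in scaling. Dhx32 had levels of 3.42, 3.78 and 3.77 with CHIR99021, 3.92, 3.90 and 3.95 with AICAR, and 3.81, 3.90 and 3.82 with DMSO. A single low CHIR99021 array, 3.42, stood out, and the difference of -0.27 ± 0.09 between CHIR99021 and AICAR (limma adjusted p = 0.0363) was lost when any 1 DMSO or AICAR array was left out. The call was also lost with the mean of its probes and in the 2-group fit. On the dimmer Dhx32 probe the difference was 0.03 (limma adjusted p = 0.764). Ddx59 and Dhx40 did not pass the test in any comparison on their brightest probes.

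**Figure D3:**
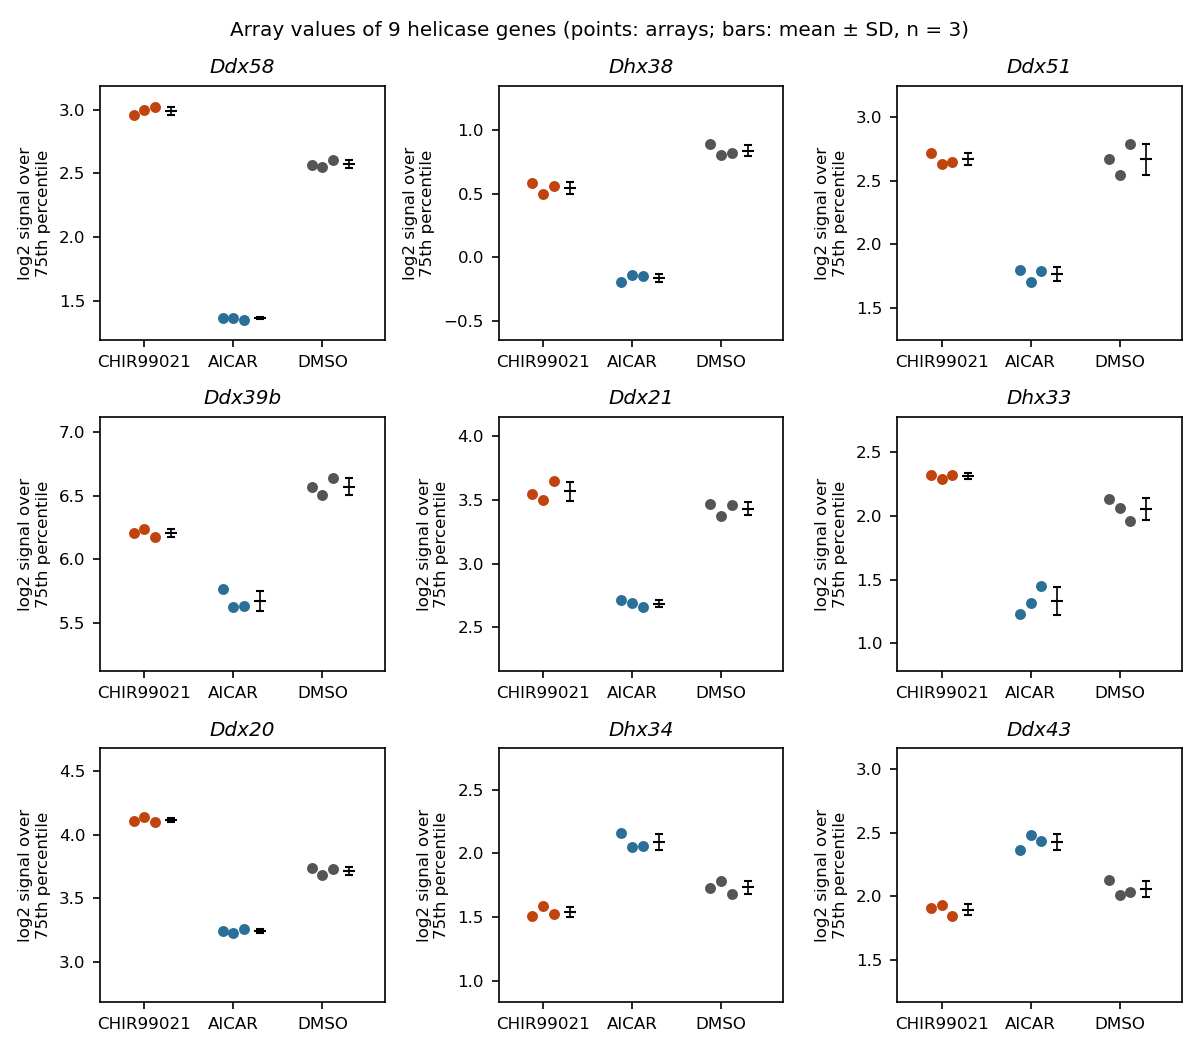
log2 level on each array (points) with the mean and SD of the 3 arrays (bars) for 9 members, the groups in the order CHIR99021, AICAR and DMSO. In Ddx58, Dhx33 and Ddx20 the CHIR99021 points lie highest and the AICAR points lowest, in Dhx34 and Ddx43 the AICAR points lie highest, and in Dhx38 and Ddx39b both treatments lie below DMSO.

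Read across both comparisons with DMSO, which share the DMSO arrays, the members fell into 7 patterns. The share of all features in each pattern was not counted, so these counts have no background. Of all features 51.0% changed after CHIR99021 and 60.5% after AICAR. A set of 8 rose after CHIR99021 and fell after AICAR: Ddx11, Ddx18, Ddx20, Ddx31, Ddx52, Ddx55, Ddx58 and Dhx33. Ddx43 and Dhx34 did the reverse. A further 6 fell under both, namely Ddx25, Ddx28, Ddx39b, Ddx54, Dhx30 and Dhx38, and no member rose under both. The most common pattern, in 20 members, was a fall after AICAR with no call after CHIR99021. Ddx10, Ddx27, Ddx42, Dhx57 and Dhx58 rose after CHIR99021 with no call after AICAR, Ddx19b rose after AICAR with no call after CHIR99021, and 8 members passed neither test. The direct comparison of the treatments gave 0.98 ± 0.07 for Dhx33 (limma adjusted p = 8.78e-06), 0.90 ± 0.07 for Ddx51 (adjusted p = 1.28e-05), 0.88 ± 0.05 for Ddx21 (adjusted p = 4.06e-06) and 0.87 ± 0.04 for Ddx20 (adjusted p = 1.09e-06). At the other end it gave -0.55 ± 0.05 for Dhx34 (limma adjusted p = 4.56e-05) and -0.53 ± 0.05 for Ddx43 (adjusted p = 6.91e-05). Ddx19b, at -0.19 ± 0.06 (limma adjusted p = 0.0215), was lost without CHIR99021 arrays 1 or 2 or AICAR arrays 1 or 3. By family, 25 of 34 Ddx and 9 of 16 Dhx genes fell after AICAR (73.5% and 56.2%), against 29.6% of all features. After CHIR99021 10 of 34 Ddx (29.4%) and 3 of 16 Dhx genes (18.8%) rose, where 30.4% of all features did.

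The promoters of the oppositely changed members were read for short motifs. RefSeq promoters (assembly GRCm38.p6, 250 bases before to 50 after a start) were matched for 44 of the 50 genes by symbol. The E-box CACGTG, which is its own reverse complement and is the motif that Myc and Max bind, was present in 6 of the 44 genes (13.6%), against 8.09% of the 27025 genes with a promoter in the table. The motif TCGCGA, also its own reverse complement and not overlapping the E-box, was present in 3 (6.82%), against 2.86% of all genes. Among the members with a promoter the E-box was in 4 of the 30 that fell after AICAR and in 2 of the 11 that did not pass. Shown here are the members past the test in opposite directions whose promoter held a searched motif, with the motif in capitals. Ddx20 is at chr3:105687522-105687821 and holds TCGCGA, Dhx33 at chr11:71004383-71004682 holds the E-box, and Dhx34 at chr7:16221944-16222243 (1 of its 2 starts in the table) holds TCGCGA, all on the minus strand and printed 5′ to 3′ in the direction of the gene.
Ddx20: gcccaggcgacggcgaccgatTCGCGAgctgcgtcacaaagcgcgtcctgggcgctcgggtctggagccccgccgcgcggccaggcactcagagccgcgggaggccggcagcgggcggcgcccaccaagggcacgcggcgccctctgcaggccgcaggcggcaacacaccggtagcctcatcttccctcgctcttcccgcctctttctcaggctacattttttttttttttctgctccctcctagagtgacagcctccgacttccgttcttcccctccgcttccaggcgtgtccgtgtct
Dhx33: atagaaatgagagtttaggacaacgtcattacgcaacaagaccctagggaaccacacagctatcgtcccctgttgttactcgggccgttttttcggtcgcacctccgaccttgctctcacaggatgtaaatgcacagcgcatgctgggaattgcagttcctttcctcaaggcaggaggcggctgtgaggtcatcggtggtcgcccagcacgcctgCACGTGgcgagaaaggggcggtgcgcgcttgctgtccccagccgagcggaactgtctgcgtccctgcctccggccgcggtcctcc
Dhx34: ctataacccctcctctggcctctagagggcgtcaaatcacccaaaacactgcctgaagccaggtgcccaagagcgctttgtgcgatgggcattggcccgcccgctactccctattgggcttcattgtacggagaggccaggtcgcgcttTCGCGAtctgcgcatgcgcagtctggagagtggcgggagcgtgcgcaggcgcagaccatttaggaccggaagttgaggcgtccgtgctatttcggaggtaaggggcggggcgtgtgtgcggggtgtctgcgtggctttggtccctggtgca
A match is a description of these letters, and binding was not measured. Dhx33 rose after CHIR99021 and fell after AICAR, as Ddx20 did, and Dhx34 did the reverse. Of the other genes with an E-box, Ddx5 and Dhx35 fell after AICAR, Ddx25 fell under both treatments, Ddx42 rose after CHIR99021 and Dhx40 passed neither test.

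More than 1 probe was available for 15 of the 50 members, and 35 had 1 probe. Of the 12 with several probes whose brightest probe fell after AICAR, 10 fell on each of their probes when every probe was tested on its own. The exceptions were Ddx58 and Ddx17. The dimmer Ddx58 probe read -2.24, -2.01 and -1.87 with CHIR99021, -3.00, -2.78 and -2.92 with AICAR, and -2.76, -2.94 and -2.78 with DMSO. On that probe AICAR and DMSO overlapped, with log2 fold changes of 0.79 after CHIR99021 and -0.07 after AICAR, so the rise was present on both probes and the fall on the brighter one. The 2 probes of Ddx17 carry accessions of different transcripts, and the dimmer one read -3.98, -4.22 and -4.09 with CHIR99021, -3.53, -3.55 and -3.39 with AICAR, and -4.28, -4.17 and -4.31 with DMSO. It rose by 0.76 after AICAR where the brighter one fell by 0.18, the single case in which probes of a member differed in sign after AICAR. Other members fell further on a dimmer probe, as Ddx31 did with -0.98 against -0.20, Ddx21 with -1.21 against -0.75 and Ddx3x with -0.82 against -0.44. Of the 4 members with several probes whose brightest probe rose after CHIR99021, Ddx18 and Ddx58 rose on each probe. The dimmer probe of Ddx31 gave 0.07 (limma adjusted p = 0.295) and that of Ddx20 0.17 (adjusted p = 0.224), so their rises rest on the brightest probe. Dhx40 (-0.47) and Ddx59 (-0.43) fell after AICAR on their dimmer probe only.

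**Figure D4:**
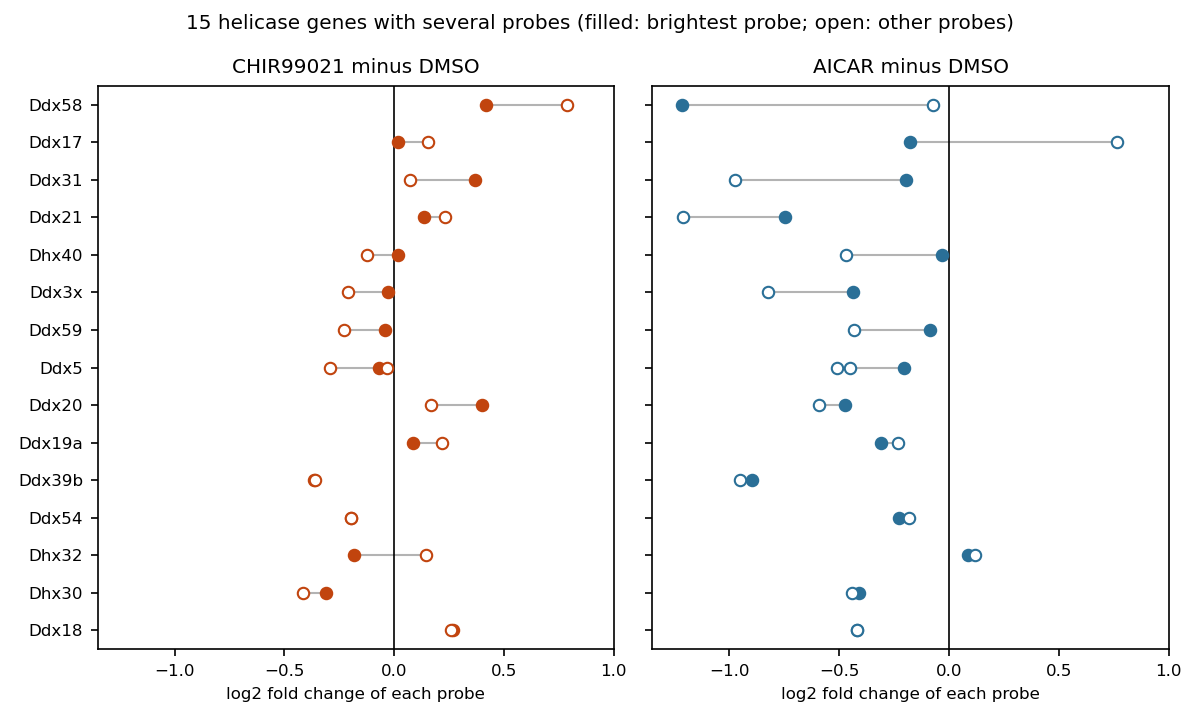
log2 fold change of every probe of the 15 members with several probes, for CHIR99021 minus DMSO (left) and AICAR minus DMSO (right), with the brightest probe filled and the others open. The widest gaps on the right are those of Ddx58 (-1.21 and -0.07), Ddx17 (-0.18 and 0.76) and Ddx31 (-0.20 and -0.98).

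Genes that work beside the members were read as lists of their own, to be set against 29.6% of all features lower and 30.9% higher after AICAR, and 30.4% higher and 20.5% lower after CHIR99021. Of 27 ribosome assembly factors without a helicase motif, 22 fell and 2 rose after AICAR with a median of -0.59, and 9 rose and none fell after CHIR99021 with a median of 0.10. Pes1, the scaffold of the PeBoW complex, fell by 1.98 ± 0.06 after AICAR, Gnl3 by 1.05 ± 0.08 and Wdr43 by 1.00 ± 0.04, and none of these passed after CHIR99021. With spike-in scaling 18 of the list fell after AICAR and 1 rose after CHIR99021. Of 21 genes with a G-patch, the class of cofactors that activate DEAH-box proteins, 15 fell after AICAR and none rose, with a median of -0.68, and after CHIR99021 3 rose and 2 fell, 23.8% changed where 51.0% of all features did. Nkrf, a G-patch partner of Dhx15 in human cells, fell by 1.23 ± 0.08 after AICAR and rose by 0.28 ± 0.08 after CHIR99021. Gpatch4 fell by 1.22 ± 0.08 and Gpatch3 by 1.21 ± 0.11 after AICAR. Among the 8 partners of Ddx20 in the SMN complex, 6 fell and 2 rose after AICAR, with a fall of 0.72 ± 0.06 for Gemin4 and a rise of 0.63 ± 0.09 for Gemin2, and 3 rose after CHIR99021.

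Of 15 export and exon junction partners of Ddx39b and Ddx19, 8 fell and 1 rose after AICAR and 7 rose and 2 fell after CHIR99021. Thoc1, a subunit of the THO complex, fell by 0.94 ± 0.10 after AICAR and by 0.50 ± 0.10 after CHIR99021. Of the 11 decapping partners of Ddx6, 6 rose and 1 fell after CHIR99021 and 1 rose and 2 fell after AICAR, and the list was not tested against Ddx6. Dcp2, the decapping enzyme, rose by 0.64 ± 0.08 after CHIR99021 and fell by 0.68 ± 0.08 after AICAR. Among 7 partners of the viral RNA sensors 3 rose and 3 fell after CHIR99021 and 1 rose and 4 fell after AICAR. Zcchc3, which binds RNA with RIG-I in human cells, fell by 0.99 ± 0.06 after CHIR99021 and by 1.84 ± 0.06 after AICAR, Mavs rose by 0.47 ± 0.04 after CHIR99021, and the kinase gene Tbk1 fell by 0.98 ± 0.09 after AICAR. Of 6 partners of Ddx1 in the tRNA ligase complex 4 fell after AICAR. Of 12 helicases of the same superfamily under other names 5 fell and none rose after AICAR, among them Skiv2l at -0.83 ± 0.10 and the exon junction helicase Eif4a3 at -0.64 ± 0.06, and of 9 UPF1-like helicases 3 fell and 2 rose after AICAR. The shares changed in these last lists, 41.7% and 55.6%, lie below the 60.5% of all features. Counts of these lists moved with single arrays. Of the ribosome assembly factors 5 rose after CHIR99021 without DMSO array 2, and of the G-patch genes 1 rose without DMSO array 3. Of the export partners 2 to 4 rose without any 1 of DMSO arrays 1, 2 and 3 or CHIR99021 array 3. Of the decapping partners 3 rose without DMSO array 1 or CHIR99021 array 3, and of the sensor partners 1 rose without DMSO array 2 or CHIR99021 array 2. After AICAR 1 UPF1-like helicase rose without any 1 of the DMSO arrays or AICAR arrays 1 and 2. Leaving out 1 array gave 0 to 2 decapping partners higher and 1 to 3 lower after AICAR, and 4 to 7 lower among the helicases under other names.

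Markers of other cells were measured beside these changes. Of 8 fibroblast markers, the usual feeder cells, 6 were well above background on at least 3 arrays and Lum and Postn on none. The log2 of their summed level was 1.14 to 1.23 with CHIR99021, 1.70 to 1.97 with AICAR and 1.04 to 1.15 with DMSO. Its genes did not move together. Pdgfrb rose by 2.13 after CHIR99021 and 2.32 after AICAR and Thy1 rose by 0.91 after AICAR, whereas Col1a2 and Col1a1 fell by 1.29 and 0.51 after AICAR. Dcn read lower after AICAR (limma adjusted p = 0.000698). It was well above background on none of the 3 AICAR arrays, on 1 CHIR99021 array and on all 3 DMSO arrays. Dcn passed the filter on dim probes through the DMSO arrays, so this test set a signal against background and is not read as a fall. For 5 primitive endoderm markers the summed level was -0.37 to -0.21 with CHIR99021, -0.16 to -0.03 with AICAR and -0.40 to -0.32 with DMSO. That sum also joins opposite changes, since Sox17 rose by 1.22 after CHIR99021 and 0.74 after AICAR and Gata6 by 0.29 and 1.00, while Dab2 fell by 1.64 and 1.91 and Gata4 fell by 0.43 after AICAR. The germ cell markers, 3 of 4 above background and Tdrd1 on no array, summed to 2.92 to 2.97 with CHIR99021, 3.23 to 3.33 with AICAR and 3.24 to 3.31 with DMSO. These genes changed in opposite directions too. Dazl rose by 0.65 after CHIR99021 and 0.44 after AICAR, Mael fell by 0.93 and 0.42, and Sycp3 rose by 0.46 after AICAR only. Of 4 myeloid and lymphoid markers, 3 were above background on at least 3 arrays, and their sum was 1.11 to 1.19 with CHIR99021, 1.13 to 1.27 with AICAR and 1.21 to 1.27 with DMSO, with Ptprc the 1 marker past the test against DMSO. It was higher after AICAR (limma adjusted p = 0.024) and was well above background on 3 AICAR arrays, 1 CHIR99021 array and 1 DMSO array. Ptprc passed the filter on dim probes through the AICAR arrays, so its test set a signal against values mostly near background. Among the 8 stem cell markers 3 rose and 2 fell after CHIR99021, and 4 rose and 2 fell after AICAR. Utf1 fell by 1.22 after CHIR99021 and 1.16 after AICAR, Esrrb rose by 0.73 and 0.44, Tdgf1 changed by -0.60 and 0.39 and Zfp42 by 0.32 and -0.31. The part of these levels in the helicase changes was not tested.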

How the data were processed

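Total RNA of 9 samples was labelled with Cy3 and hybridised to 9 one-colour Agilent arrays. The values used are linear spot intensity readings from the deposited scanner files, produced by Agilent Feature Extraction 10.7.3.1 per the file headers. The series matrix deposited by the authors holds log2 values, with a normalization not given in the sources used here. Spots flagged as outliers and control spots were left out, spots of a probe were averaged, and the log2 of the processed signal minus the array's 75th percentile was taken. Accessions were matched to RefSeq symbols (GRCm38.p6, used for names), which named 27235 of 55681 probes. Probes well above background on at least 3 arrays were kept, with the brightest probe per gene. One gene of the name pattern is not reported here. All 9 arrays entered a single fit with lmFit and eBayes of limma 3.58.1 (R 4.3.3), tested on simulated data, with Benjamini-Hochberg adjustment over 26864 features. Array values are given for the members with the largest changes (8 and 8 against DMSO, 5 and 5 between treatments, up to 6 in opposite directions) and for 10 members whatever their result. Alternatives were normexp (offset of 50, on median signals), quantile and spike-in scaling, the series matrix, other probe rules, a replicate block, leaving out each array, and 2-group fits. Correlations of same-numbered samples' deviations were -0.05 to 0.09, and those of differently numbered samples -0.13 to 0.11. With 3 arrays per group these values cannot settle whether replicates were paired, which is not stated, and the main fit used no pairing. Members and lists were chosen with earlier results of these data known.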

Additional observations from a re-analysis of the deposited data

How the results depend on the processing

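The counts and medians of the 50 members were recomputed under each alternative. Scaling on 8 spike-in probes moved them most. It left 4 higher and 5 lower (9 in all) after CHIR99021, 20 lower (23 in all) after AICAR, and 17 higher (21 in all) in CHIR99021 against AICAR. Of all 26864 features it left 4536 higher and 4799 lower after CHIR99021, 4517 lower after AICAR and 4185 higher in CHIR99021 against AICAR. The main fit had 8180, 5516, 7943 and 9722. The members' median after CHIR99021, 0.0046, was -0.0088 with normexp, which was chosen in this form after seeing the data, -0.047 with quantile scaling, -0.060 with spike-in scaling and -0.051 in the series matrix. After AICAR the median of -0.33 was -0.23 with quantile scaling, -0.20 with spike-in scaling, -0.23 in the series matrix and -0.37 with the mean of each gene's probes. In CHIR99021 against AICAR the median of 0.39 was 0.34 with normexp, 0.29 with quantile scaling, 0.19 with spike-in scaling and 0.28 in the series matrix. The cause of these shifts was not tested. Leaving out 1 array at a time gave 11 to 14 higher, 5 to 10 lower and medians of -0.0071 to 0.014 after CHIR99021, 32 to 35 lower and medians of -0.36 to -0.31 after AICAR, and 2 to 4 lower and medians of 0.35 to 0.42 in CHIR99021 against AICAR. With the replicate number as a block 13 members rose and 6 fell after CHIR99021, 3 rose and 33 fell after AICAR, and 32 were higher and 4 lower in CHIR99021 against AICAR.

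Of the 29 named genes the sign turned under some alternative for 5 after CHIR99021, 3 after AICAR and 4 between the treatments. Those after CHIR99021 (Ddx19b, Ddx3x, Ddx51, Ddx6 and Dhx36) passed the test in neither setting, as was so for Ddx27 and Dhx57 after AICAR and Ddx25 between the treatments. Ddx5 after AICAR was 0.0012 with quantile scaling and 0.0017 in the series matrix. In CHIR99021 against AICAR Ddx5 was -0.10 with quantile scaling, -0.058 with spike-in scaling and -0.11 in the series matrix. Dhx30 was -0.15 and -0.16 with quantile scaling and in the series matrix (limma adjusted p = 0.015 and 0.0117). Ddx54 was -0.18 in both (limma adjusted p = 0.0276 and 0.0253). Dhx30 and Ddx54 were thus lower with CHIR99021 past the test in these settings, and neither passed in the main fit. Of 551 values of named genes tried in each comparison, 494 kept direction and call after CHIR99021, 525 after AICAR and 510 between the treatments. Among all members the call of Ddx17 reversed with the mean of its probes. Signal over background did not limit the members, and 3 arrays per group limit the precision.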

Other observations

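Among the 12 helicases under other names and the 9 UPF1-like helicases read here, Helz2 and Mov10l1 had large changes. In some comparison each changed more than any of the 50 members did on its brightest probe. Helz2, an interferon-induced helicase, fell by 2.19 ± 0.10 after CHIR99021 (limma adjusted p = 2.22e-06, 3 arrays per group) and differed by -2.08 ± 0.10 in CHIR99021 against AICAR (adjusted p = 1.59e-06). Mov10l1, known from piRNA production in the mouse testis, fell by 0.61 ± 0.15 after CHIR99021 (limma adjusted p = 0.00966) and rose by 1.14 ± 0.15 after AICAR (adjusted p = 0.0003). Its difference in CHIR99021 against AICAR was -1.75 ± 0.15 (adjusted p = 2.38e-05).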
